A study of Mus musculus with 208 samples.

Results

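Collagen chain genes were taken as all genes whose symbol in the annotation of the array is Col, a number, the letter a and a second number, with nothing after it. The rule gave 37 of 16593 named genes, and these carried 59 of the 25697 gene probes. By the usual families the members are 11 fibrillar genes (17 probes), 6 fibril-associated genes (8 probes), the 6 basement membrane genes of type IV (9 probes), 3 beaded filament genes of type VI (5 probes), the genes of types XV and XVIII (4 probes), 3 genes of the anchoring and short-chain network types VII, VIII and X (4 probes), 4 transmembrane genes (10 probes), and Col26a1 and Col28a1 with 1 probe each. Expression was measured in the left ventricle (LV) of female mice of the Hybrid Mouse Diversity Panel (HMDP), a collection of classical inbred and recombinant inbred (RI) strains, on 208 Illumina MouseRef-8 v2.0 arrays of 1 color. The ISO arrays (93 strains) held LV RNA of mice that received isoproterenol (ISO), a non-selective β-adrenergic agonist used to bring about cardiac hypertrophy and failure, for 3 weeks from an age of 8 to 9 weeks through an implanted minipump. The sample labels give a dose of 30 µg per g body weight per day, the design text gives 20, and the source label gives an age of 10 weeks for all hearts. The control arrays (93 strains) held LV RNA of mice left untreated over the same period. Each array carried RNA pooled from mice of a strain, so errors and p-values below measure the spread between such pools. Both conditions were at hand for 87 strains, 27 classical and 60 RI, with 6 further strains measured in ISO only and 6 in control only.

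Collagens are proteins, most of them secreted, in which 3 chains wind into a triple helix. Fibrillar collagens, led by types I and III in the heart, assemble into the fibers that carry tension between cardiomyocytes, and they are made mostly by cardiac fibroblasts. Fibril-associated collagens bind to the surface of such fibers, and type IV collagen forms the sheet-like network of the basement membrane around cardiomyocytes and vessels. Accumulation of fibrillar collagen is known as fibrosis, a common feature of the failing heart.

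The regions upstream of 3 of these genes are shown, Col3a1 and Col1a2 being past both thresholds below and Col6a1 just short of the fold threshold. Each of them has a single upstream region, which overlaps no annotated gene. The regions of Col5a1 and Col16a1, also past both thresholds, overlap annotated genes and are not shown. The table of RefSeq regions (build GRCm38.p6) had an upstream window for 30 of the 37 genes, among them 4 of the 6 genes past both thresholds below, and none for Col1a1 and Col14a1. Each window holds the 250 bases before the first transcribed base, written on the strand of the gene. Capitals mark 3 short strings known from promoters and searched on both strands, namely TATAAA (the TATA box), the CCAAT box and the GC box GGGCGG, which do not overlap each other in the windows shown.
Col3a1, chr1:45311288-45311537, + strand: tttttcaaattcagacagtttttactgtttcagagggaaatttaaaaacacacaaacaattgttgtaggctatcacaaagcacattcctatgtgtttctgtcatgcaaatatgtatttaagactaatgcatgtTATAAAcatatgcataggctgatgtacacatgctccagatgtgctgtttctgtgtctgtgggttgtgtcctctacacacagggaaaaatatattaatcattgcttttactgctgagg
Col1a2, chr6:4505368-4505617, + strand: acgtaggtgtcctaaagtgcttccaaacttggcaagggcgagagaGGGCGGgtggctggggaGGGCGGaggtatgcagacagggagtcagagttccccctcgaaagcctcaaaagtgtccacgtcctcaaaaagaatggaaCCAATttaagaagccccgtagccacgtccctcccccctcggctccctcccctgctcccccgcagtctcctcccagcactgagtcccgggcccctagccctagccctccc
Col6a1, chr10:76726045-76726294, - strand: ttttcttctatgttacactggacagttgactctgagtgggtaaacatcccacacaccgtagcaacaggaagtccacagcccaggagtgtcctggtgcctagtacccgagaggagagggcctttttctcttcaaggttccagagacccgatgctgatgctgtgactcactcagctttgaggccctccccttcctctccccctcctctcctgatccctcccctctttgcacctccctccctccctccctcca
The Col3a1 window had 1 match, TATAAA at position -117 from the first transcribed base, and a GC content of 35.2%. The Col1a2 window had GGGCGG at positions -205 and -188, CCAAT at -109, and a GC content of 62%. The Col6a1 window had none of the 3 strings and a GC content of 56%. Of 33 windows of collagen genes, 12 held CCAAT, 5 held TATAAA and 19 held GGGCGG, and of all 32851 windows of the same length 33.8%, 12.4% and 32.7% did. A match is a description of the letters and not a site. The windows of Col5a1 and Col16a1 had a GC content of 76.4% and 75.6%, above that of the 3 windows shown. The annotated starts of Col4a1 and Col4a2, which lie on opposite strands of chromosome 8, shared 22 bases.

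Some arrays were in doubt before any comparison. A low connectivity to the others (a standardized value under -2.5) was found for 5 arrays, the ISO arrays of AXB19/PgnJ and NOD/LtJ and the control arrays of AXB-4/PgnJ, AXB-6/PgnJ and BXD69/RwwJ, and their shares of detected probes were 31.7%, 28.9%, 38.1%, 39.2% and 40.2%. Over all arrays these shares ran between 28.9% and 50.3% in ISO (median 46.9%) and between 38.1% and 49.6% in control (median 46.7%). An array resembled the other condition of its own strain more than any other strain in 122 of 196 cases, in 122 of 184 with both arrays on a BeadChip and in 0 of 12 otherwise. On BeadChips 12, 19, 23, 24 and 25, numbered here by slide number, it did so in 0 of 7, 0 of 8, 0 of 3, 0 of 8 and 0 of 2. The arrays checked on BeadChips 12, 23 and 25 are the 12 whose partner lay on another BeadChip. For these, identity and the lack of a shared BeadChip cannot be told apart. BeadChips 19 and 24 failed with both arrays of a strain on the same BeadChip. Position on the BeadChip nearly coincided with the condition, since 97 ISO arrays were in positions B, D, F or H and 99 control arrays in A, C, E or G, so position and condition cannot be told apart in full. The counts of changed probes are given without the arrays of low connectivity and without these BeadChips in the closing section, and values of single chains that turn on them are given beside the result.

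At the thresholds below, ISO up-regulated a small set of collagens, all fibrillar or fibril-associated. In limma with strain as a block, 7 probes of 6 genes (Col1a1, Col1a2, Col3a1, Col5a1, Col14a1 and Col16a1) passed an adjusted p-value of 0.05 and a log2 fold change of 0.2 (a change of 14.9%). None was down-regulated by this rule, with 5 collagen probes lower and 13 higher at an unadjusted p under 0.05, and 52 probes did not pass. Over all probes 3.72% were higher and 3.53% lower by the same rule, and 7 higher of 59 lie above the first share. By type, 5 of 17 fibrillar probes and 2 of 8 fibril-associated probes rose, against 0 of 9 type IV probes and 0 of 5 type VI probes. At an unadjusted p under 0.05 the counts were 6 fibrillar and 2 fibril-associated probes higher and 2 fibril-associated probes lower, with 0 of type IV and 4 of type VI higher. The limit to these types depended on the fold threshold. Without the arrays of low connectivity 11 collagen probes were higher by both thresholds, with type VI and Col18a1 probes among them. The median log2 fold change over all collagen probes was 0.02 and that over all gene probes was 0.00, so most members stayed near the array as a whole. In LV tissue more cells of a type and more RNA per cell cannot be told apart. All values below are log2 intensities after neqc normalization, averaged within a strain, and levels are not compared between probes.

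**Figure D1:**
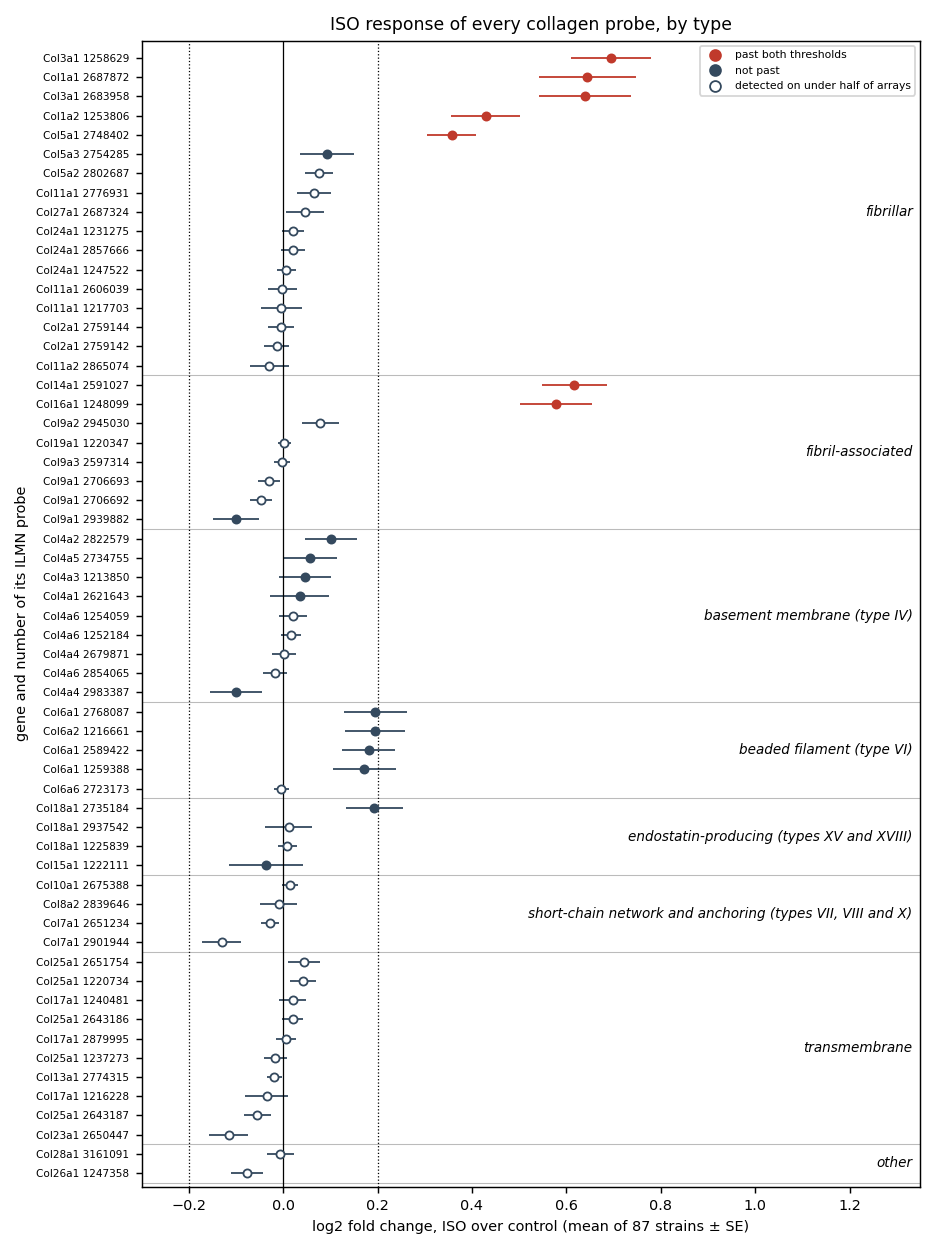
Log2 fold change of ISO over control (mean of 87 strains, bars are SE) for each of the 59 collagen probes, grouped by type. Red points, past both thresholds, are 5 fibrillar and 2 fibril-associated probes, and open points mark probes detected on under 50% of the arrays, which sit close to 0.

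Type I collagen is the stiff main component of cardiac scar and consists of chains encoded by Col1a1 and Col1a2. Col1a1 ran between 5.65 and 12.16 with a median of 9.33 in ISO hearts and between 6.70 and 10.83 with a median of 8.63 in control hearts. The ranges overlapped widely. The mean was 9.34 ± 0.91 in ISO and 8.70 ± 0.57 in control (SD, n = 87 strains each), a rise of 56.3% (log2 fold change 0.64, SE 0.10, limma adjusted p = 5.8e-07), and 67 of 87 strains were higher in ISO. The strain differences of Col1a1 reached from -3.36 in AXB19/PgnJ, whose ISO array is of low connectivity, to 3.10 in CXB-11/HiAJ. Without the arrays of low connectivity the fold change was 0.71. Col1a2 ran between 4.87 and 8.55 with a median of 5.91 in ISO hearts and between 4.64 and 7.16 with a median of 5.58 in control hearts. It rose by 34.7% (0.43, SE 0.07, limma adjusted p = 3.04e-06) and was higher in 64 strains. The Col1a2 probe was dim, detected on 86.3% of ISO and 73.6% of control arrays, while the Col1a1 probe was detected on 98% of ISO and 100% of control arrays. Without background correction the Col1a2 change was 0.18 and no longer passed the fold threshold, and that of Col1a1 was 0.56.

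Type III collagen, a more pliable fiber made with type I, has a single chain gene, Col3a1, with a pair of probes. The brighter probe (ILMN_1258629) ran between 5.35 and 9.42 with a median of 6.89 in ISO hearts and between 4.60 and 8.08 with a median of 6.37 in control hearts. Its mean was 7.06 ± 0.83 in ISO and 6.36 ± 0.73 in control (SD, n = 87 each), and it rose by 61.9% (0.70, SE 0.08, limma adjusted p = 3.05e-10). It was higher in 72 strains. The other probe (ILMN_2683958) rose by 55.9% (0.64, SE 0.10, limma adjusted p = 2.32e-07) and was higher in 69 strains, so both probes passed. Without background correction the changes were smaller, 0.36 at the brighter and 0.31 at the other probe, and still past both thresholds. Type V collagen starts and narrows fibrils of type I. Its Col5a1 chain ran between 8.96 and 11.51 with a median of 10.21 in ISO hearts and between 9.20 and 11.24 with a median of 9.79 in control hearts. Col5a1 rose by 28.1% (0.36, SE 0.05, limma adjusted p = 7.21e-08) in 71 of 87 strains. The partner chain Col5a2 was detected on 6 ISO and 3 control arrays and did not pass (0.08, SE 0.03, limma adjusted p = 0.0689). Col5a3, detected on most arrays, did not pass either (0.09, adjusted p = 0.335). The control strain BXD-5/TyJ, on BeadChip 24, was the highest of all control strains for Col1a1, Col1a2, Col4a1, Col5a1 and Col14a1 and for the brighter Col3a1 probe. The number of ISO strains above the highest control strain therefore moved with this strain and with its BeadChip. For Col1a1 it was 3 of 87 strains, 10 without BXD-5/TyJ, and 17 of 83 without BeadChip 24. For Col5a1 it was 3, 6 and 18 in the same order, and 4 of 80 without all 5 BeadChips in doubt. For the brighter Col3a1 probe it was 10, 10 and 15, and 6 without the 5 BeadChips. For Col1a2 it was 7 each time.

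Among fibril-associated collagens, Col14a1 and Col16a1 rose and Col9a1, Col9a2, Col9a3 and Col19a1 did not pass. Col14a1 encodes a chain that sits on type I fibrils and limits their lateral growth. It ran between 5.58 and 8.67 with a median of 6.77 in ISO hearts and between 4.62 and 7.95 with a median of 6.22 in control hearts. Its mean was 6.82 ± 0.61 in ISO and 6.21 ± 0.53 in control (SD, n = 87 each), a rise of 53.3% (0.62, SE 0.07, limma adjusted p = 1.48e-11). With 76 of 87 strains higher, it was the most uniform of the 7 probes, whose counts ran between 64 and 76. Without background correction its change was 0.29, past both thresholds. Col16a1, found beside fibrils and microfibrils, ran between 7.29 and 10.18 with a median of 8.32 in ISO hearts and between 6.71 and 9.56 with a median of 7.89 in control hearts. It rose by 49.3% (0.58, SE 0.08, limma adjusted p = 4.18e-09) and was higher in 69 strains. The cartilage collagen gene Col9a1 had a difference of -0.10 at its brightest probe (limma adjusted p = 0.18).

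**Figure D2:**
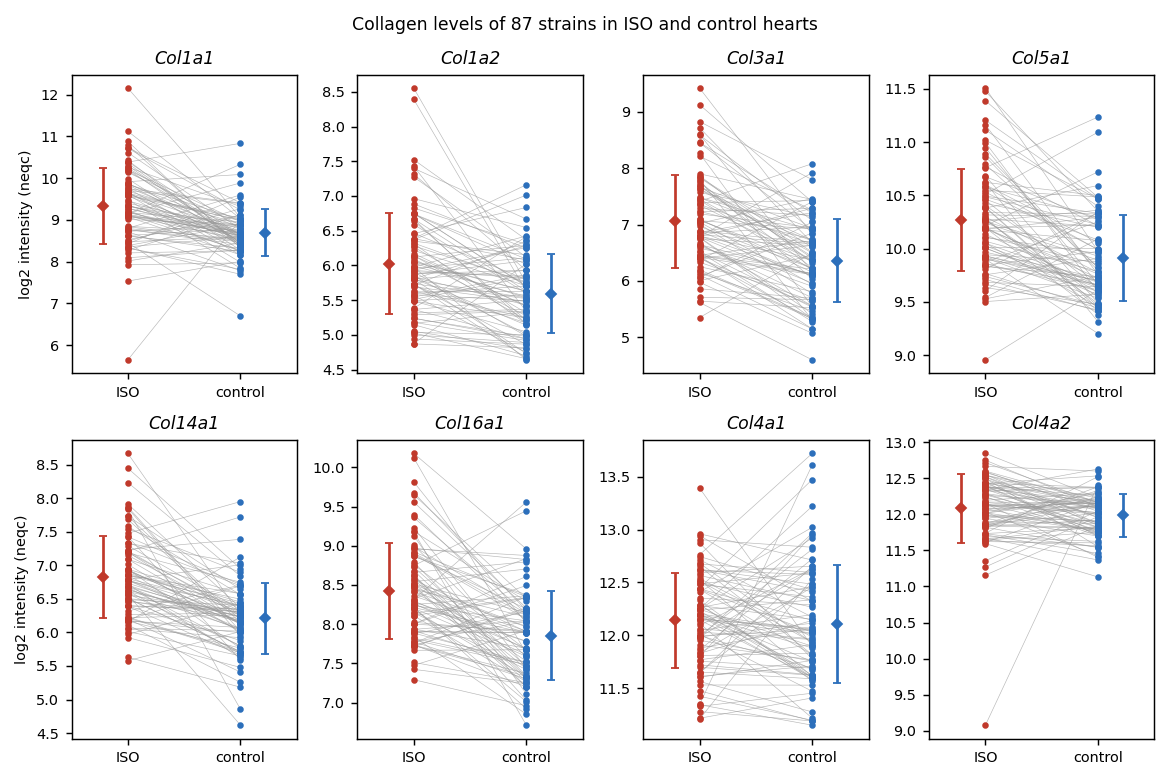
Log2 intensity of 8 collagen genes in 87 strains, ISO on the left and control on the right of each panel, with lines joining a strain and diamonds giving mean ± SD. For Col1a1 the mean was 9.34 in ISO and 8.70 in control and the ISO points spread wider, while for Col4a1 the means of 12.14 in ISO and 12.11 in control lie level.

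The basement membrane chains did not pass in these hearts. Col4a1 and Col4a2 together form the common type IV collagen of all basement membranes. Col4a1 ran between 11.21 and 13.39 with a median of 12.19 in ISO hearts and between 11.15 and 13.72 with a median of 12.03 in control hearts. No ISO strain lay above the highest control strain, with or without BeadChip 24. The means were 12.14 ± 0.45 in ISO and 12.11 ± 0.56 in control (SD, n = 87 each), and the change was 2.5% (0.04, SE 0.06, limma adjusted p = 0.805). Still, 56 of 87 strains were higher in ISO, and the median strain difference was 0.10. The lowest Col4a1 differences included 3 strains of BeadChip 21, AXB-6/PgnJ (-2.27), BXA-1/PgnJ (-1.15) and AXB-4/PgnJ (-0.97), and the control arrays of AXB-6/PgnJ and AXB-4/PgnJ are of low connectivity. In the same 3 strains the Col4a2 differences were -0.19, -0.10 and 0.95. Col4a2 ran between 9.08 and 12.84 with a median of 12.13 in ISO hearts and between 11.13 and 12.63 with a median of 12.02 in control hearts. Its change was 7.3% (0.10, SE 0.06, limma adjusted p = 0.252), and the lowest ISO value belonged to AXB19/PgnJ. Without the arrays of low connectivity the changes were 0.09 for Col4a1 and 0.16 for Col4a2, still under the fold threshold.

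The minor type IV chains, which replace the common pair in particular basement membranes such as that of the kidney glomerulus, also did not pass. Col4a3 ran between 4.49 and 6.43 with a median of 5.44 in ISO hearts and between 4.54 and 6.11 with a median of 5.39 in control hearts (0.05, SE 0.05, limma adjusted p = 0.682). The brighter Col4a4 probe ran between 4.71 and 6.50 with a median of 5.39 in ISO hearts and between 4.76 and 7.08 with a median of 5.48 in control hearts (-0.10, SE 0.06, limma adjusted p = 0.257). Its other probe had medians of 4.66 in ISO and 4.68 in control and a change of 0.00. Col4a5 ran between 6.53 and 9.45 with a median of 8.45 in ISO hearts and between 7.14 and 9.09 with a median of 8.36 in control hearts (0.06, SE 0.06, limma adjusted p = 0.63). The 3 probes of Col4a6 changed by between -0.02 and 0.02 and were hardly detected.

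Type VI collagen, a network of beaded filaments that links cells to the fibers around them, lay just under the fold threshold. Col6a1 averaged 11.14 in ISO and 10.95 in control at its brightest probe (ILMN_2768087), a rise of 14.5% (log2 fold change 0.195, SE 0.067, limma adjusted p = 0.0331) with 58 strains higher. Col6a2 averaged 8.72 in ISO and 8.53 in control, a rise of 14.5% (log2 fold change 0.195, SE 0.063, limma adjusted p = 0.0232) with 52 strains higher. Both differences were lowest in AXB19/PgnJ, at -3.48 for Col6a1 and -2.54 for Col6a2. Without the arrays of low connectivity the changes were 0.26 (limma adjusted p = 7.8e-05) for Col6a1 and 0.23 (limma adjusted p = 0.0015) for Col6a2, and both then passed both thresholds. Of the other Col6a1 probes, ILMN_2589422 changed by 0.18 (adjusted p = 0.0151) and ILMN_1259388 by 0.17 (adjusted p = 0.0649). Col6a6, a long chain that can take the place of the third type VI chain, had a change of 0.00.

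Col15a1 and Col18a1 encode basement membrane collagens whose ends are cut off as endostatin-like fragments. Col18a1 rose by 14.3% at its brightest probe (log2 fold change 0.193, SE 0.060, limma adjusted p = 0.0168, 59 strains higher), short of the fold threshold, and passed at 0.21 without the arrays of low connectivity. Col15a1 had a change of -0.04 (limma adjusted p = 0.845), with -4.38 in AXB19/PgnJ. In all, 6 probes passed the adjusted p-value but not the fold threshold, 4 of them higher (a pair of Col6a1 probes, Col6a2 and Col18a1) and 2 lower. The lower ones were Col7a1, the anchoring fibril chain of skin (-0.13, adjusted p = 0.019), and Col23a1, a transmembrane collagen (-0.12, adjusted p = 0.041). Both lower probes were detected on under 50% of the arrays, and the other Col7a1 probe did not pass the adjusted p-value. Detection limited the rest as well. At least 50% of the arrays detected 20 probes of 17 genes. The 39 probes detected on fewer arrays than that share averaged between 4.45 and 5.23 in ISO and between 4.47 and 5.22 in control, near the floor, with changes between -0.13 and 0.08. They include the cartilage fibril chains Col2a1, Col11a1 and Col11a2, the minor fibrillar chains Col24a1 and Col27a1, Col10a1 of growth plate cartilage, Col8a2 of vessel and corneal membranes, and the transmembrane chains Col13a1, Col17a1 and Col25a1. None of the probes of these genes, and neither that of Col26a1 (-0.08) nor that of Col28a1 (-0.01), passed the adjusted p-value (smallest adjusted p = 0.133).

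The responses of 10 pairs of chains were compared within strains, by sign-flip permutation of the 87 strain differences with Benjamini-Hochberg adjustment over the 10 pairs. Col1a1 responded more than Col4a1 by 0.61 (SE 0.10, 95% interval 0.42 to 0.80), with 74 of 87 strains in that direction (permutation adjusted p = 2e-05). Col3a1 responded more than Col4a1 by 0.66 (95% interval 0.49 to 0.83), also in 74 strains, and Col4a1 less than Col14a1, by -0.58 (95% interval -0.74 to -0.42), with 18 strains the other way. Without background correction these 3 differences were 0.52 (74 strains), 0.33 (64 strains) and -0.26 (28 strains the other way), each with a permutation adjusted p of at most 6.67e-05. With background correction the raw p of each was 1e-05, the smallest that 100000 permutations can give. Col1a1, Col3a1 and Col14a1 thus moved more than Col4a1. They had passed both thresholds and Col4a1 had not, on the same strain differences, so these p-values add no separate support. The comparison covers these chains and not their types. Fibrillar Col5a2 and Col5a3 and fibril-associated Col9a1, which did not pass, were not set against type IV. Col3a1 and Col14a1 differed by 0.08 (95% interval -0.07 to 0.23, permutation adjusted p = 0.359), which leaves room for a difference of either sign. Partner chains of a molecule were also compared. Col1a1 exceeded Col1a2 by 0.22 (SE 0.11, permutation adjusted p = 0.072), and by 0.31 (adjusted p = 0.0006) without the arrays of low connectivity. Col5a1 exceeded Col5a2 by 0.28, which bears on a Col5a2 probe near the floor. Col4a1 and Col4a2 differed by -0.07 (95% interval -0.19 to 0.05), and Col6a1 and Col6a2 by 0.00 (95% interval -0.07 to 0.07). Col1a1 exceeded Col5a1 by 0.29 (95% interval 0.15 to 0.42). Col1a1 and Col3a1 differed by -0.05 (95% interval -0.24 to 0.14, permutation adjusted p = 0.709), and by 0.19 (adjusted p = 0.0094) without background correction and 0.04 (adjusted p = 0.561) without the arrays of low connectivity, which turn the direction.

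The fibrillar response was not even over the 3 sets of BeadChips, told apart by the first digits of the slide number. Col1a1 changed by 0.20 in set 1 (24 strains, limma adjusted p = 0.69), 0.94 in set 2 (52 strains, 1.1e-09) and 0.32 in set 3 (16 strains, 0.49), and by 0.67 in set 3 without BeadChip 24 (12 strains, 0.16). Col14a1 changed by 0.56, 0.63 and 0.56 (adjusted p = 0.00093, 2.6e-09 and 0.3). The brighter Col3a1 probe changed by 0.93, 0.79 and 0.17, Col16a1 by 0.54, 0.76 and 0.03, Col5a1 by 0.24, 0.46 and 0.07, and Col1a2 by 0.60, 0.52 and 0.01. In set 2 the 7 probes were joined by all 3 Col6a1 probes (0.37, 0.35 and 0.23), Col6a2 (0.28) and Col18a1 (0.28), 12 probes past both thresholds. The type IV chains also differed by set. Col4a1 changed by -0.14 in set 1 (limma adjusted p = 0.57), 0.18 in set 2 (0.0325) and -0.33 in set 3 (0.488). Col4a2 changed by -0.29 in set 1 (0.494), by just under 0.2 in set 2 (0.0004), and by 0.18 in set 3 (0.384). Neither chain passed both thresholds in any set. No set turned the direction of any of the 7 probes. The sets hold mostly different strains, so set and strain cannot be told apart in full. A few strains, such as BXD32/TyJ, have both conditions in more than 1 set. The differences between sets were not tested.

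Between strains, Col1a1 was more variable in ISO than in control hearts. Its SD over strains was 0.91 in ISO and 0.57 in control, a ratio of 1.59, and a Pitman-Morgan test across all probes with Benjamini-Hochberg adjustment gave p = 0.0003. Over the collagen probes, 11 had a wider and 4 a narrower spread in ISO. Over all probes 16.6% were wider and 8.87% narrower, so the members' counts lie near the background. Without the arrays of low connectivity the SD of Col1a1 was 0.80 in ISO and 0.53 in control (adjusted p = 0.0024). With ranks, Col1a1 was the only collagen probe that passed (adjusted p = 0.0093). The dimmer Col3a1 probe passed with and without the arrays of low connectivity (adjusted p = 0.0054 and 0.018) but not with ranks. The wider spread of Col4a2, Col15a1 and Col5a3 was lost without these arrays (adjusted p = 0.23, 0.36 and 0.46). Repeated arrays of a strain and condition, 22 in all (9 ISO and 13 control), had a within-strain SD of 0.99 for Col1a1, 1.01 for the brighter Col3a1 probe, 0.50 for Col14a1 and 0.57 for Col5a1. Most of these lie at or above the SD between strains. Repeats of a strain lay on different BeadChips, many of them on BeadChips 12, 19, 23 or 25, which are in doubt. The ISO repeat of NOD/LtJ includes the array of low connectivity. This SD therefore also holds differences between BeadChips and any mislabeled array. On these arrays the level of a single strain was poorly determined.

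No difference in response between RI and classical strains passed for any of the 59 probes (0% over all probes, limma adjusted p of at least 0.999), and 2 collagen probes (3.39%) had an unadjusted p under 0.05 against 4.09% of all probes. The RI minus classical difference of the 7 up-regulated probes ran between -0.08 and 0.16. For Col1a1 the mean difference was 1.05 in BXD/RwwJ strains (20 of 22 higher), 0.60 in CXB (3 of 7 higher), 0.57 in classical (27), 0.56 in BXD/TyJ (11), 0.47 in AXB/BXA (16) and -0.08 in BXH (4). Col14a1 was higher in 16 of 16 AXB/BXA strains (mean difference 0.97) and in 25 of 27 classical strains (0.66), against -0.04 in the 4 BXH strains. Col4a1 had mean differences of 0.49 in BXH, 0.24 in BXD/RwwJ and -0.30 in AXB/BXA. Of the 4 BXH strains 2 lie on BeadChip 24. Without it the BXH means were 0.82 for Col1a1 and 0.28 for Col14a1, both of the opposite sign, and 0.19 for Col4a1. Without the arrays of low connectivity the Col4a1 mean in AXB/BXA was -0.07 (13 strains). Differences among the RI families were not tested.

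Where a strain responded strongly for a collagen, it tended to do so for others. Over 87 strains all 10 pairs of chains had positively correlated ISO minus control differences (permutation p adjusted over the 10 pairs of at most 0.0143). The correlation was highest for Col6a1 with Col6a2 (r = 0.85, rho = 0.78) and for Col1a1 with Col5a1 (r = 0.81, rho = 0.87), each with an adjusted p of 2e-05. Without the 2 strains farthest from the median r was 0.78 and 0.87. Within the sets of BeadChips the Col1a1 and Col5a1 values were 0.65, 0.91 and 0.85, and those of Col6a1 and Col6a2 were 0.86, 0.84 and 0.78. Col4a1 with Col4a2 had r = 0.50 and rho = 0.69 (0.49, 0.83 and 0.47 within sets), and r was 0.79 without the arrays of low connectivity. Across types, Col3a1 with Col14a1 had r = 0.57 and rho = 0.57, Col1a1 with Col4a1 r = 0.40 and rho = 0.53, Col3a1 with Col4a1 r = 0.38 and rho = 0.47, and Col4a1 with Col14a1 r = 0.26 and rho = 0.29. Col5a1 with Col5a2 had r = 0.42 and rho = 0.40. Col1a1 with Col3a1 (r = 0.52, rho = 0.64) and Col1a1 with Col1a2 (r = 0.29, rho = 0.50) became 0.72 and 0.53 without the 2 farthest strains, AXB19/PgnJ and CXB-11/HiAJ. In set 1, which holds AXB19/PgnJ, r was -0.16 (permutation adjusted p = 0.496) with Col3a1 and -0.48 (0.0378) with Col1a2. The rho values there were 0.20 and 0.007. Without AXB19/PgnJ and NOD/LtJ, whose ISO arrays in this set are of low connectivity, r in set 1 was 0.62 and 0.36. Both values of a point come from the same arrays.

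**Figure D3:**
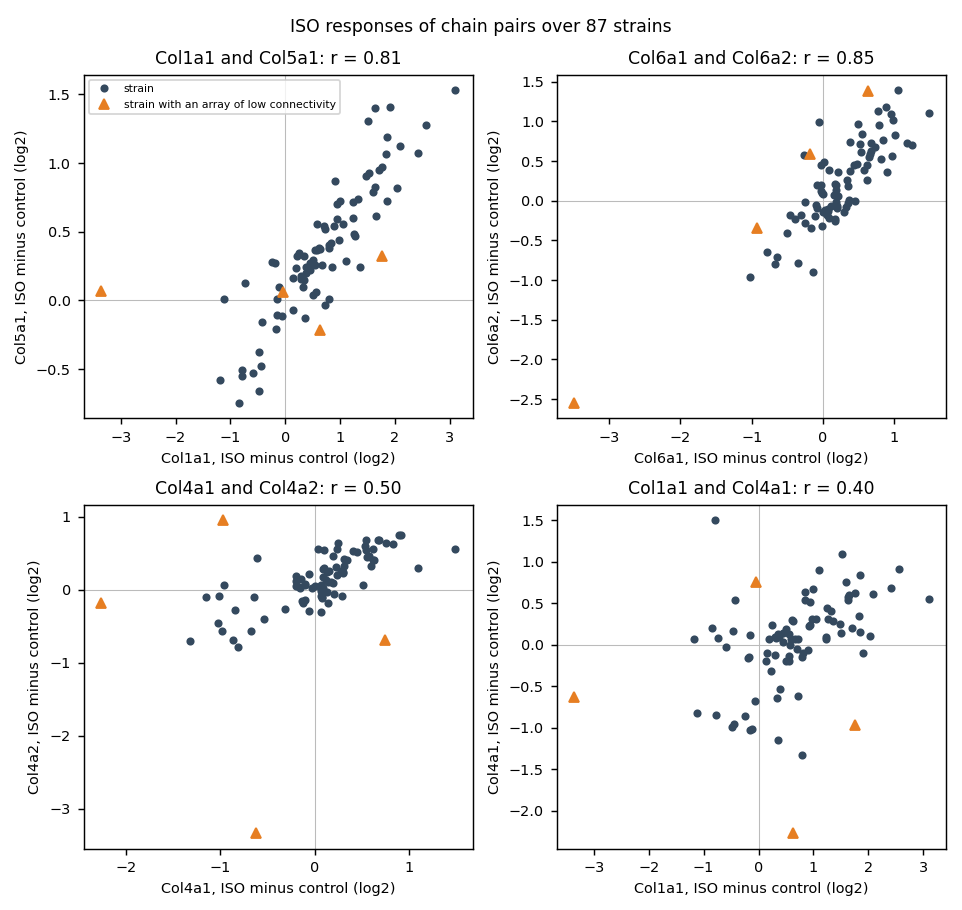
ISO minus control differences (log2) of chain pairs, a point for each of 87 strains, with triangles for strains that have an array of low connectivity. Col1a1 with Col5a1 (r = 0.81) and Col6a1 with Col6a2 (r = 0.85) lie close to a line, while Col1a1 with Col4a1 (r = 0.40) scatters widely and the AXB19/PgnJ triangle stands at the far left.

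A regression of every probe on the response of each of 5 chains set these associations against the background of the array. Of the 58 other collagen probes, 17 were positively associated with Col1a1 (6.26% of all probes were), 18 with Col5a1 (6.32%), 13 with Col3a1 (4.76%), 17 with Col6a1 (9.64%) and 20 with Col4a1 (18.3%). Among the 19 other probes detected on at least 50% of the arrays the counts were 14, 14, 10, 14 and 13 in the same order, against 12%, 11.6%, 8.07%, 19.5% and 30.9% of all detected probes. Negative associations numbered 1 with Col1a1 (6.56% of all probes), 0 with Col5a1 (4.14%), 0 with Col3a1 (4.34%), 4 with Col6a1 (11.1%) and 0 with Col4a1 (13.8%). Other probes of the same gene are among the members counted. The members' shares lay above the background for each of the 5 chains.

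The level of a collagen in control hearts was related to that in ISO hearts of the same strain for part of the members. Over 87 strains 27 of 59 probes were positively correlated (Pearson's test over all probes with Benjamini-Hochberg adjustment), against 53.6% of all probes, a share not above the background. The correlation was r = 0.56 (rho = 0.55, permutation p = 1e-05) for the dimmer and r = 0.48 (rho = 0.49, p = 1e-05) for the brighter Col3a1 probe, r = 0.46 (rho = 0.53, p = 1e-05) for Col1a2, r = 0.39 (rho = 0.40, p = 0.00021) for Col5a1, r = 0.35 (rho = 0.40, p = 0.001) for Col14a1 and r = 0.32 (rho = 0.36, p = 0.00251) for Col4a1. For Col1a1 it was r = 0.22 (rho = 0.22, permutation p = 0.0453), which did not pass after adjustment over all probes (adjusted p = 0.077). Permutation was run for 16 collagen probes. Without the 2 strains farthest from the median these became 0.58, 0.46, 0.47, 0.38, 0.34, 0.38 and 0.15. Both arrays of a strain mostly share a BeadChip. With the mean of each BeadChip removed, 0 collagen probes passed (8 at an unadjusted p under 0.05), while 2654 of all probes did, and r was 0.26 and 0.20 for Col3a1, 0.26 for Col1a2, 0.23 for Col5a1, 0.26 for Col14a1, 0.25 for Col4a1 and 0.19 for Col1a1. Within the 3 sets of BeadChips r was 0.07, 0.50 and 0.32 for the brighter Col3a1 probe, 0.58, 0.49 and 0.14 for Col14a1, 0.41, 0.21 and 0.49 for Col1a1, and 0.08, 0.35 and -0.20 for Col4a1.

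**Figure D4:**
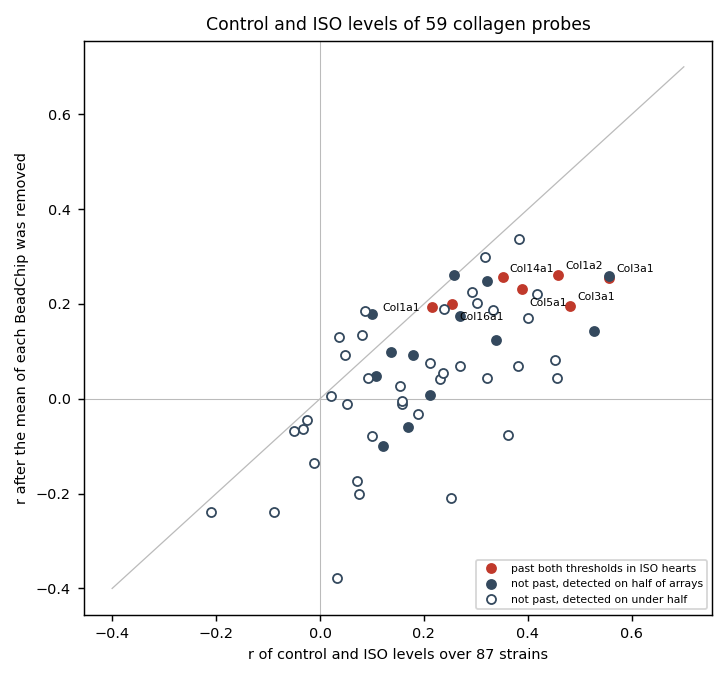
Correlation of control and ISO levels over 87 strains for each of the 59 collagen probes (horizontal axis), against the same r after the mean of each BeadChip was removed (vertical axis). Points such as Col3a1 (0.48 and 0.20) lie below the diagonal.

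Genes that make, cross-link or cut collagen were counted beside the chains. Of 42 measured genes for collagen processing and collagen receptors, 12 rose and 2 fell. Over all probes 3.72% were higher and 3.53% lower by the same rule. Among probes detected on most arrays, as 33 of the 42 were, 942 of 11735 were higher and 906 lower. The 12 that rose lie above this background, and the 2 that fell lie near it. The listed genes with the smallest p-values were Loxl1 and Lox, which cross-link collagen and elastin, Sparc, which binds collagen as it leaves the cell, and Mmp14, a membrane-bound collagenase. They rose by 36.9% (limma adjusted p = 4.8e-10), 108% (1.2e-09), 27.6% (1.5e-08) and 42.1% (5.1e-08). The median log2 change of the list was 0.07, against 0.00 over all probes. The genes that fell were P4ha2, a prolyl hydroxylase (-0.21), and the collagenase gene Mmp13 (-0.32), named after their values were seen.

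Markers of the cells that make or surround collagen were counted in the same way, and the same background applies. Of 15 fibroblast markers 6 rose and none fell, 14 were detected on most arrays, and their summed linear level ran between 17611 and 52496 (median 27881) in ISO and between 15149 and 42396 (median 23492) in control. Of 10 myofibroblast markers 5 rose, and the summed level ran between 9807 and 48314 (median 22614) in ISO and between 7129 and 34613 (median 17891) in control. Of 12 macrophage markers 8 rose, with sums between 3521 and 33511 in ISO and between 1659 and 21457 in control. Of 12 endothelial markers none rose and 1 fell, of 11 smooth muscle and pericyte markers 1 rose, and of 12 cardiomyocyte markers, all detected, none passed. The part of these cell types in the collagen changes was not tested. Of 8 cartilage markers 2 rose, Comp, a matrix protein of cartilage and tendon that is also on the myofibroblast list and was detected on most arrays (6.54 in ISO and 5.94 in control, 51.6% higher, limma adjusted p = 0.0015), and Sox9, the transcription factor of chondrocytes, detected on 26.9% of the arrays (16.5% higher, adjusted p = 0.0019). The cartilage collagens Col2a1 and Col9a1 did not pass.

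Strains measured in only 1 condition gave a small unpaired comparison, 6 ISO strains against 6 control strains, on BeadChips 12, 23 and 25. None of the 37 genes differed at an exact two-sided permutation p under 0.05 (the smallest this design can give is 0.00216), and 20 of 37 were higher in ISO. Col14a1 averaged 7.01 in ISO and 6.57 in control (exact p = 0.307), Col1a1 8.87 in ISO and 8.65 in control (exact p = 0.662), and Col3a1 5.95 in ISO and 5.97 in control (exact p = 0.959). Col4a2 averaged 12.51 in ISO and 12.15 in control (exact p = 0.058). With limma 0 of 25697 probes passed the adjusted threshold (0%), and 1464 probes, 1 of them a collagen probe, had an unadjusted p under 0.05. The identity of these arrays could not be checked, since their strains have no array in the other condition.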

How the data were processed

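LV RNA of ISO and control mice, pooled per strain, was hybridized to Illumina arrays. The deposited intensity values are the authors' export from GenomeStudio 2010.3, before background correction and normalization, and the deposited detection p-values were computed there for each probe and array. For the deposited log2 values the authors applied neqc of limma, and these values served as an alternative. Here neqc (limma 3.58.1, R 4.3.3, offset 16) was run anew on the intensities of 25697 gene probes, leaving 829 control probes unused. Each of 208 deposited columns was closest to its own array normalized here (median absolute difference 0.00057, column medians 4.99 to 5.01), so scale, direction and lack of centering are known. The authors left out probes over SNPs. Those probes are not listed in the sources used here, so all were kept, and the effect on strain differences was not tested. A single gene symbol was given for 23978 probes and no symbol for 1719. Median intensities per array ran between 97.9 and 179, and the number of arrays limits the precision.

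Members and gene lists were chosen with earlier results of these data known. All collagen genes are named, at each probe. Levels are given in full for chains past both thresholds and for type IV chains, and of other lists up to 4 genes with the smallest p. Arrays of a strain and condition were averaged. The ISO and control values of a strain were compared in limma (lmFit and eBayes, strain as block), with Benjamini-Hochberg adjustment over all probes. The pairing comes from the strain label, and deviations from the condition means had a median correlation of 0.478 within strains, over 0.1 in 80 of 87. Spread was compared by the Pitman-Morgan test, RI with classical strains by limma, and pairs of chains by permutation (100000 permutations, two-sided, numpy 2.4.6, scipy 1.17.1). All tests across probes were also run on simulated data, for part of them with spreads taken from these data. Protein sequences were not used here.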

Additional observations from a re-analysis of the deposited data

Results flagged for a closer look

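Among 32 groups of 4 to 10 strains, the highest or lowest strain stood apart from the others in 4, by the ratio of its gap to the range of the group. Chance alone gives about 1 such strain in 20 independent groups. These groups are the same few sets of strains at several chains, so they are not independent. In the BXH family (4 strains), the ISO minus control difference of Col4a1 was highest in BXH-9/TyJ at 1.50, and this strain lies on BeadChip 24. In the CXB family (7 strains), CXB-11/HiAJ was highest for Col14a1 at 2.41 and for Col16a1 at 2.50, and it also had the highest difference of all strains for Col1a1, Col3a1 and Col5a1. Among the 6 strains with control arrays only, Col5a1 was lowest in BXA-12/PgnJ at 8.97.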

How the results depend on the processing

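The 7 up-regulated collagen probes were recomputed under 16 alternatives, 112 values in all. None turned the direction, 93 kept their side of the thresholds and 19 did not, of which 18 were in single sets of BeadChips and 1 was Col1a2 without background correction. The count of collagen probes higher in ISO was 7 without the replicate block, in unpaired fits of both 87 and 99 strains, 7 with the authors' deposited values, with median scaling and with detected probes only, 6 without background correction, and 9 with first arrays alone, with BeadChip as a block, with pairs on the same BeadChip, and without BeadChips 12, 19, 23, 24 and 25 (80 strains). It was 11 without the arrays of low connectivity, where a pair of Col6a1 probes, Col6a2 and Col18a1 joined, and 11 without a fold threshold, where 2 were lower. It was 3 in BeadChip set 1, 12 in set 2 and 0 in set 3, and 0 in set 3 without BeadChip 24, an alternative chosen after seeing the data. These sets hold 24, 52, 16 and 12 strains, and the cause was not tested. The probes with a wider spread in ISO numbered 1 with ranks, 8 without the arrays of low connectivity, 10 without background correction and 17 without the BeadChips in doubt. The positive correlations of control and ISO levels numbered 30 without the arrays of low connectivity, 0 with BeadChip means removed, and 0, 13 and 1 within the sets. The correlated pairs of chains numbered 10 of 10 with BeadChip means removed, 6 in set 1 and 4 in set 3. The 6 pairs of set 1 include Col1a1 with Col1a2, whose r was negative, with a rho of 0.007. Without AXB19/PgnJ and NOD/LtJ that r was 0.36. Counts of ISO strains above the highest control strain and BXH means without BeadChip 24 were added after seeing the data. RI against classical strains stayed at 0 probes in each alternative run. Of the 27 positive correlations of control and ISO levels, 2 were below 0 with BeadChip means removed, and 4, 1 and 6 within the sets. Values of opposite sign among pairs included the response of Col1a1 minus Col3a1 without background correction (0.19) and without the arrays of low connectivity (0.04), the correlations of Col1a1 with Col1a2 (-0.48) and with Col3a1 (-0.16) in set 1, and those of Col1a1 with Col4a1 (-0.15) and of Col4a1 with Col14a1 (-0.048) in set 3. Signal over background limits the rest, since 39 collagen probes were detected on under 50% of the arrays and sit near the floor, where a change is hard to detect.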
